A study of Mus musculus with 8 samples.

Results

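The histone genes of the gastrulating mouse embryo are described here, 74 of the 21182 gene symbols measured. They were chosen by symbol alone: 60 symbols beginning with Hist1h to Hist4h, called clustered genes below, and 14 symbols beginning with H2af, H3f or H1f, called variants. By class the clustered genes are 6 for the linker histone H1, 14 for H2A, 17 for H2B, 11 for H3 and 12 for H4, and 2 of them carry a pseudogene suffix. The variants are 4 for H1, 8 for H2A and 2 for H3. Whole C57BL/6 embryos at embryonic day E6.75 were lysed singly, 4 of them of genotype Control and 4 of genotype Tet1/2/3 TKO, a loss of the 3 TET enzymes that oxidise methylcytosine. The labels name no treatment and give neither the alleles, any Cre driver, the litter nor the sex. RNA was measured with a SMARTer ultra-low cDNA kit, Nextera XT libraries and an Illumina HiSeq instrument. The deposited unit is RPKM, a read count divided by gene model length in kilobases and by the library's reads in units of 1000000. Levels of different genes share that scale, but priming, shared sequence and unknown gene models, described below, limit their comparison.

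Histones wrap DNA into nucleosomes. The clustered genes have no introns, are transcribed in S phase for the doubling of chromatin, and their main mRNAs end in a short stem-loop, bound by the protein SLBP, in place of a poly(A) tail. The variants come mostly from genes outside this programme, many with introns and polyadenylated mRNAs. H2A.Z and H3.3 are placed by their own chaperones throughout the cell cycle, at promoters and enhancers among other sites. MacroH2A is found at silent chromatin, and H2A.X is phosphorylated at DNA breaks. The cDNA kit primes on poly(A) tails, so the values of clustered genes are those of the transcripts this priming reached and not of their total mRNA.

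Estimated depth was 9.91 to 19.08 M reads per embryo (M for 1000000), and 2186 to 4942 symbols were listed at 0 in an embryo. Tet1 lay at 4.93 to 5.76 RPKM in Control embryos and 9.21 to 15.3 RPKM in TKO embryos, above Control in all 4. Tet2 lay at 0.444 to 0.850 and 0.598 to 0.993 RPKM, and Tet3 at 1.73 to 2.08 and 1.14 to 1.68 RPKM. The embryos are therefore called TKO-labelled, and all directions given here depend on that label. A value per gene cannot show a deletion of exons. Of 16 parietal endoderm markers all had the higher mean in the TKO-labelled group, with a summed level of 183 to 360 RPKM in Control, 299.6 in TKO replicate 1 and 662 to 1026 RPKM in the other 3. Visceral endoderm markers summed to 2682 to 6121 and 3226 to 5053 RPKM, and maternal decidua markers to 9.60 to 455 and 21.5 to 417 RPKM. The 9 markers of trophoblast giant cells and ectoplacental cone summed to 15.1 to 32.4 and 6.47 to 130 RPKM, with the 130 in TKO replicate 3. The 10 blood genes summed to 0.995 to 32.0 and 0.622 to 23.4 RPKM. Of these, the embryonic globin genes Hbb-bh1 and Hba-x were listed at 0 in all 8 embryos. In these whole embryos fewer cells of a type and less RNA per cell cannot be told apart, and the p-values measure how these 8 single embryos vary.

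In the RNA that poly(A) priming reached, the variants made up nearly all of the histone signal, and a single gene most of it. H2afz, the major H2A.Z gene, lay at 3297, 3601, 3251 and 3116 RPKM in Control replicates 1 to 4 and at 2968, 3891, 3236 and 3597 RPKM in TKO-labelled replicates 1 to 4. It held 67.4% to 73.9% of the summed RPKM of all 74 members in an embryo. All 60 clustered genes together held 1.75% to 3.805%. The median level over the 8 embryos was 0.374 RPKM for a clustered gene and 25.1 RPKM for a variant. A level of at least 1 RPKM in at least 4 embryos, the filter for the test, was reached by 17 clustered genes and 10 variants, 27 members in all. The 47 under the filter are 43 clustered genes and the variants H1fnt, H1foo, H2afb1 and H2afy3.

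No histone gene passed the test between the groups. Differences were tested with limma on log2(RPKM + 1) over all 10451 genes above the filter, with Benjamini-Hochberg adjustment and a threshold of 0.05, and are TKO-labelled minus Control. Of the 27 members 0 were called, where 1 of the 10451 genes was (0.00957%). At an unadjusted limma p under 0.05 the values of 2 clustered genes and 2 variants were lower in the TKO-labelled group and those of 0 were higher, where 3.6% of all genes tested were lower and 13.9% higher. The difference was below 0 for 13 of 17 clustered genes (76.5%) and 7 of 10 variants (70%), and for 33.5% of all genes tested. The median log2 difference was -0.17 for the clustered genes, -0.11 for the variants and 0.09 for all genes. With no filter it was -0.03 over all 60 clustered genes, 32 of them below 0 (53.3%, against 48.3% of all genes), and with a pseudocount of 0.1 it was -0.31 over the 17. The scale moves the median of all genes, which was 0.02 after median-ratio scaling of the columns. An unadjusted limma p under 0.05 then went with higher values in 839 genes (8.03%) and lower values in 673 (6.44%), in place of 1448 and 376. Then 46.4% of differences lay below 0, the clustered genes and variants still counted 2 each with lower and 0 with higher values at that p, and the medians were -0.24 for clustered genes and -0.19 for variants. The part of the parietal endoderm markers in these differences was not tested. Without TKO replicate 2 the median of the clustered genes was -0.07, and without TKO replicate 1 it was -0.39. Leaving out 1 embryo at a time gave 0 to 4 clustered genes with lower values at that p (0 without TKO replicate 3, 4 without Control replicate 4, 2 without TKO replicate 4 and 1 without any other) and 1 to 2 variants. It gave 0 or 1 of each with higher values. Without TKO replicate 1, 36 of all genes were called, 0 of them histone genes.

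**Figure D1:**
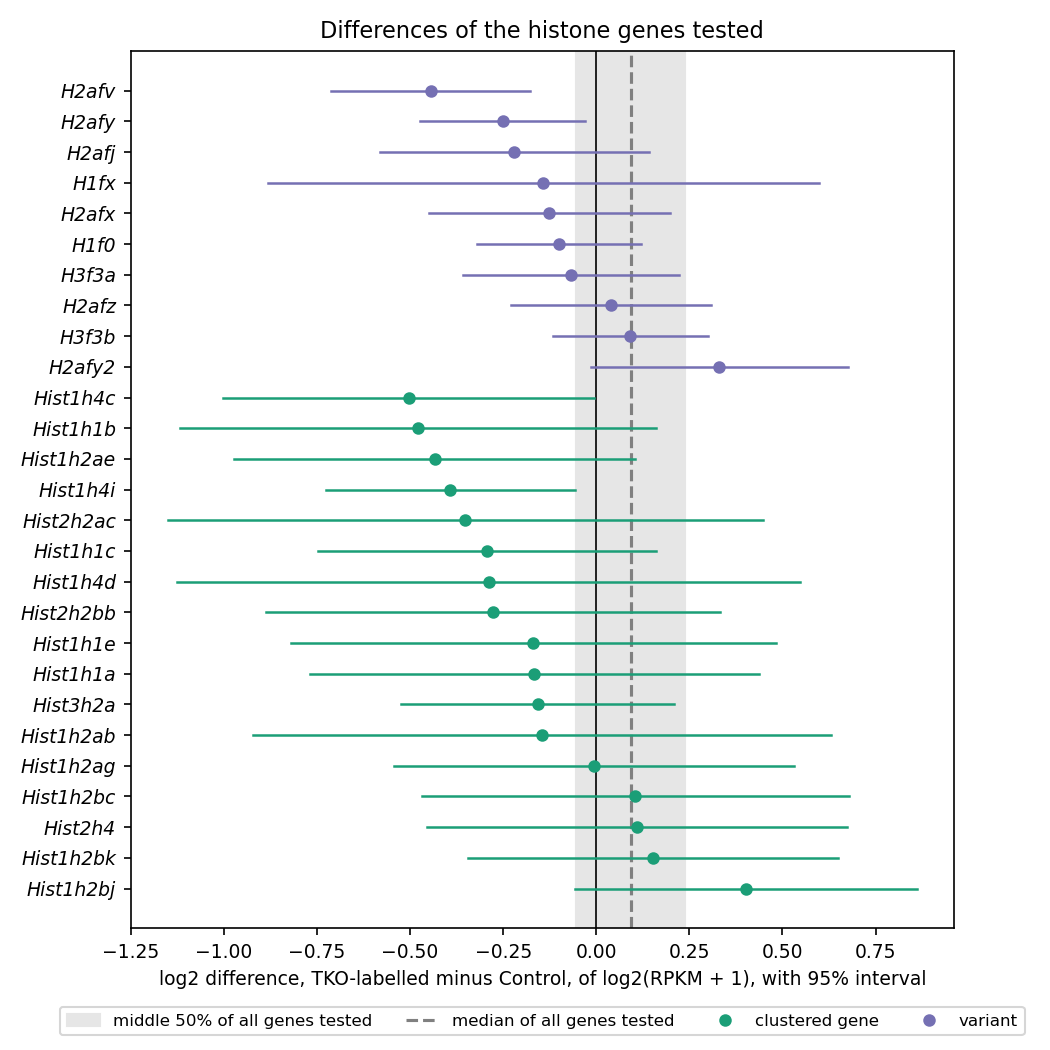
Log2 difference with its 95% interval for each of the 27 histone genes tested, on the log2(RPKM + 1) scale, TKO-labelled minus Control (n = 4 each), with variants above and clustered genes below. The grey band spans the lower to the upper quartile of all genes tested, and the dashed line marks their median of 0.09. Intervals of 4 genes (H2afv, H2afy, Hist1h4c and Hist1h4i) lie below 0, and no gene passed the adjusted threshold.

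Among the variants of H2A, the pair of H2A.Z genes lay at very different levels. H2afv, which encodes the second H2A.Z isoform, lay at 103.7, 144.7, 109.8 and 125.4 RPKM in Control embryos and at 83.4, 95.02, 90.4 and 83.2 RPKM in the TKO-labelled group. Each TKO-labelled embryo lay below each Control embryo. The log2 difference of H2afv was -0.44 (95% interval -0.71 to -0.18, limma p = 0.00389, exact permutation p = 0.0286), with an adjusted p of 0.164. Over the alternatives the adjusted p ran from 0.126 to 0.405, and leaving out 1 embryo gave a log2 difference of -0.51 to -0.35. In TKO replicate 1, whose parietal endoderm markers summed to a level within the Control range, H2afv stood at 83.4 RPKM. That is a single embryo, and the part of these markers in the difference of H2afv was not tested.

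H2afz had a log2 difference of 0.04 as deposited and of -0.05 after median-ratio scaling (95% interval as deposited -0.23 to 0.31, limma's adjusted p = 0.888). Its mean level over all embryos was 32.3 times that of H2afv. The share of H2afv in the sum of both H2A.Z genes was 3.05%, 3.86%, 3.27% and 3.87% in Control and 2.73%, 2.38%, 2.72% and 2.26% in the TKO-labelled group. The shares of the groups did not overlap. This ratio within an embryo does not depend on the scaling of its column, and it received no test of its own.

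H2afy, the main macroH2A1 gene, lay at 29.1, 28.4, 30.2 and 33.2 RPKM in Control embryos and at 24.3, 24.2, 27.9 and 24.5 RPKM in the TKO-labelled group. The groups did not overlap, as for H2afv, so 2 of 10 variants were lower without overlap and 0 higher. Of all genes tested 1.86% were lower and 7.55% higher without overlap, 9.41% in all. The log2 difference of H2afy was -0.25 (95% interval -0.47 to -0.03, limma p = 0.0288, exact permutation p = 0.0286, adjusted p = 0.239). The part of the parietal endoderm markers in this difference was not tested. The macroH2A2 gene H2afy2 had values of 2.12, 3.32, 2.98 and 3.82 RPKM in Control embryos and 3.85, 4.83, 3.37 and 4.23 RPKM in the TKO-labelled group. These overlapped, with a log2 difference of 0.33 in the other direction (95% interval -0.01 to 0.68, limma p = 0.0587, exact permutation p = 0.0571, adjusted p = 0.305). Whether the differences of the macroH2A genes differ from each other was not tested.

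H2afx, whose protein is phosphorylated at DNA breaks, ranged from 50.6 to 63.5 RPKM in Control embryos and from 41.1 to 66.1 RPKM in the TKO-labelled group (log2 difference -0.13, limma's adjusted p = 0.683). H2afj, an H2A gene outside the clusters, ranged from 21.3 to 28.1 and from 16.1 to 28.4 RPKM (-0.22, limma's adjusted p = 0.505). Both overlapped widely, and TKO replicate 1 held the highest value of each. Summed without H2afz, the other 7 H2A variants came to 234 ± 24.1 RPKM in Control embryos and 189 ± 11.7 RPKM in the TKO-labelled group (SD, n = 4 each), with H2afv the highest of the 7 in every embryo.

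The H3.3 protein comes from a pair of genes, and both were abundant. H3f3b lay at 653, 605, 639 and 613 RPKM in Control embryos and at 644, 652, 659.9 and 721 RPKM in the TKO-labelled group (log2 difference 0.09, 95% interval -0.12 to 0.30, limma's adjusted p = 0.637). H3f3a lay at 339, 496, 467 and 446 RPKM in Control embryos and at 387, 419, 395 and 452 RPKM in the TKO-labelled group (-0.07, 95% interval -0.36 to 0.22, limma's adjusted p = 0.816). Both genes overlapped between groups. H3f3b gave 55.0% to 65.8% of their sum. The centromeric H3 gene Cenpa, outside the symbol rule, averaged 108 ± 8.02 and 126 ± 16.7 RPKM (SD, n = 4 each), a log2 difference of 0.22 (limma's adjusted p = 0.358).

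Of the linker variants, H1f0, the H1 of slowly dividing and differentiated cells, ranged from 28.2 to 32.5 RPKM in Control embryos and from 26.6 to 30.7 RPKM in the TKO-labelled group (log2 difference -0.10, limma's adjusted p = 0.624). H1fx, the H1.10 gene, had values of 2.62, 2.77, 0.905 and 2.23 RPKM in Control embryos and 4.56, 1.13, 0.838 and 1.60 RPKM in the TKO-labelled group. Its log2 difference of -0.14 (limma's adjusted p = 0.853) was 0.05 without TKO replicate 3. The 4 variants under the filter were near 0: the testis gene H1fnt, the oocyte gene H1foo, the testis gene H2afb1 and H2afy3 had means of 0.017 to 0.068 RPKM, and each was listed at 0 in at least 1 embryo.

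**Figure D2:**
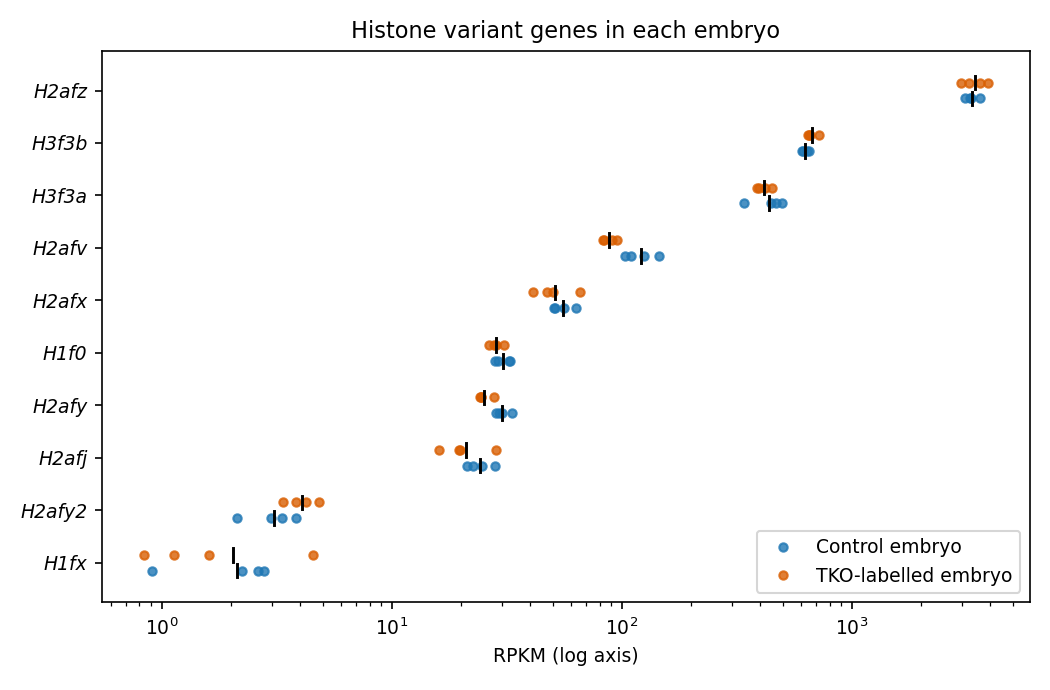
RPKM of the 10 variants above the filter in each embryo, on a log axis, with Control embryos in blue, TKO-labelled embryos in orange and black ticks at the group means (n = 4 each). H2afz lies near 3370 RPKM, far above the next gene H3f3b near 648 RPKM, and only H2afv and H2afy show groups without overlap.

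Among the clustered genes a few members carried most of the signal. The 5 highest, Hist1h2bc, Hist1h4d, Hist1h4i, Hist1h2ae and Hist1h1b, held 63.2% to 70.5% of the clustered sum in an embryo. That sum was 179, 139, 137 and 111 RPKM in Control embryos and 166, 92.1, 119 and 119 RPKM in the TKO-labelled group. The groups overlapped, with means of 142 ± 28.1 and 124 ± 30.8 RPKM (SD, n = 4 each). The sum of the variants was 4647 ± 243 and 4725 ± 427 RPKM.

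The mRNA ends of these genes were read from GENCODE M21 transcripts (build GRCm38), because the stem-loop sets how a clustered mRNA is processed. For each gene the longest transcript of any kind with the motif below was taken, or the longest coding one where none had it. The motif searched on the transcript strand was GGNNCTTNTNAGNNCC. It was found in 39 of the 59 clustered genes with a transcript there, always with 6 of 6 stem positions paired, and in 1 of 14 variants, H2afx, whose gene is known to make both kinds of mRNA. Of all 21877 coding genes 136, or 0.622%, hold it in some coding transcript. That wider search left out transcripts of other kinds, which the search of the histone genes included. No match says only that these letters are not in the annotated transcript, and several short models end at the stop codon. The sites below are shown with 5 bases on each side and the 16 bases of the motif in capitals, for genes whose values are described.
Hist1h4d: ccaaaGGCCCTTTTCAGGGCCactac
Hist1h4i: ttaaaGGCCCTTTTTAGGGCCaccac
Hist1h4c: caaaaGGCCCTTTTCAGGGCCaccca
Hist1h4h: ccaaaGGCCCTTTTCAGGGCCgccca
Hist1h2ae: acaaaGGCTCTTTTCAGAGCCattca
Hist1h2bj: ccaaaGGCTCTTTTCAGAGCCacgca
Hist1h3b: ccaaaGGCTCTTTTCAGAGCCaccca
Hist1h1c: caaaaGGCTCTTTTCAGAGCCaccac
H2afx: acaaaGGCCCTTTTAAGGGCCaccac

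The letters of the stem follow the class. All 11 H4 genes with the motif have a stem of the GGCC or GGTC kind, and the form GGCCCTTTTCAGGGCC occurs in 6 of them. The form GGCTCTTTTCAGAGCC occurs in 20 genes, all of class H1, H2A, H2B or H3. H2afx has the GGCC stem of the H4 genes.

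The annotated transcript runs at least 100 bases past the stem-loop in 21 clustered genes, ends nearer to it in 18, and holds no motif in 20. Their median levels were 0.581, 0.518 and 0.244 RPKM, and 8, 5 and 4 of them passed the filter. Among genes running past it are Hist1h4d, which goes on for 770 bases, and Hist1h4i, which goes on for 330 bases. The highest gene, Hist1h2bc, has an annotated transcript of 1156 bases without the motif. Where it was counted, a longer annotated end also gives the counting more room, so these levels are a description. The gene models used for counting are not given. The shortest model length at which low values came out as whole reads was 312 bases for Hist4h4, annotated at 2863. For Hist1h2ac it was 2495 bases, annotated at 2482. The groups by annotated end therefore need not describe what was counted.

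Class H4 held both clustered genes with an unadjusted p under 0.05. Hist1h4i lay at 11.2, 17.1, 12.8 and 17.5 RPKM in Control embryos and at 10.1, 10.6, 9.95 and 12.4 RPKM in the TKO-labelled group. TKO replicate 4 lay above Control replicate 1, and the other 3 TKO-labelled embryos lay below all Control embryos. The log2 difference was -0.39 (95% interval -0.73 to -0.06, limma p = 0.0259, exact permutation p = 0.0571, adjusted p = 0.231), and leaving out 1 embryo gave -0.51 to -0.30.

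Hist1h4c lay at 1.94, 1.93, 3.85 and 1.34 RPKM in Control embryos and at 1.62, 0.903, 0.839 and 1.64 RPKM in the TKO-labelled group. The groups overlapped, and Control replicate 3 stood above the other 7 embryos. The log2 difference was -0.50 (95% interval -1.001 to -0.01, limma p = 0.0475, exact permutation p = 0.143, adjusted p = 0.282), and -0.30 at the smallest when 1 embryo was left out. Neither gene made a group without overlap, so 0 of 17 clustered genes were lower without overlap.

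Hist1h4d, the highest H4 gene, lay at 30.1, 27.2, 23.4 and 16.3 RPKM in Control embryos and at 40.1, 8.12, 17.3 and 23.2 RPKM in the TKO-labelled group. The TKO-labelled embryos enclosed the whole Control range. Its log2 difference of -0.29 (95% interval -1.12 to 0.55, limma's adjusted p = 0.718) was 0.09 without TKO replicate 2, the lowest embryo. Hist2h4 was at 0.174 to 1.84 RPKM in Control embryos and 0.753 to 1.45 RPKM in the TKO-labelled group (0.11, limma's adjusted p = 0.851, -0.12 without Control replicate 1). Hist1h4d and Hist1h4i together gave 81.0% to 90.8% of the H4 sum, which was 44.8 ± 4.55 RPKM in Control embryos and 37.0 ± 14.2 RPKM in the TKO-labelled group (SD, n = 4 each).

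Class H2B rested on a single gene. Hist1h2bc lay at 43.0, 18.8, 35.2 and 26.7 RPKM in Control embryos and at 41.4, 22.6, 40.3 and 27.3 RPKM in the TKO-labelled group. The ranges nearly coincided, with a log2 difference of 0.10 (95% interval -0.47 to 0.68, limma's adjusted p = 0.861) that turned to -0.10 without Control replicate 2. It gave 61.4% to 84.5% of the H2B sum. Hist1h2bj had the highest difference of the 17 clustered genes above the filter, with 2.06, 1.75, 2.31 and 0.912 RPKM in Control embryos and 3.70, 2.03, 1.93 and 2.90 RPKM in the TKO-labelled group (0.40, 95% interval -0.06 to 0.86, limma's adjusted p = 0.340). Hist1h2bk averaged 1.36 and 1.65 RPKM (0.15, limma's adjusted p = 0.751) and Hist2h2bb 1.69 and 1.28 RPKM (-0.28, limma's adjusted p = 0.624), both with wide overlap. The difference of Hist2h2bb was -0.03 without TKO replicate 2 and -0.13 without Control replicate 2.

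In class H2A all 5 genes tested had differences below 0, and none had an unadjusted p under 0.05. Hist1h2ae, the highest, lay at 21.1, 14.6, 9.78 and 8.79 RPKM in Control embryos and at 8.73, 11.7, 7.22 and 9.79 RPKM in the TKO-labelled group. Control replicates 1 and 2 stood above the rest, and the other Control embryos lay among the TKO-labelled ones (log2 difference -0.43, 95% interval -0.97 to 0.10, limma p = 0.103, exact permutation p = 0.2, adjusted p = 0.377). Without Control replicate 1 the difference was -0.21. Hist2h2ac averaged 4.35 ± 2.27 and 3.00 ± 1.31 RPKM (SD, n = 4 each, -0.35, or -0.13 without Control replicate 1, limma's adjusted p = 0.637). Hist1h2ab averaged 4.27 and 3.41 RPKM (-0.15, limma's adjusted p = 0.858), and its difference was 0.17 without Control replicate 1. Hist3h2a averaged 2.80 and 2.42 RPKM (-0.16, limma's adjusted p = 0.646). Hist1h2ag averaged 0.993 and 0.954 RPKM (-0.01, or 0.01 with a pseudocount of 0.1, limma's adjusted p = 0.993).

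The linker genes of the clusters also had differences below 0 in all 4 that were tested. Hist1h1b, which encodes H1.5, lay at 21.1, 10.05, 7.51 and 6.62 RPKM in Control embryos and at 8.10, 6.18, 5.85 and 8.36 RPKM in the TKO-labelled group. Control replicate 1 stood apart from the other 7 embryos (log2 difference -0.48, 95% interval -1.12 to 0.16, limma p = 0.127, exact permutation p = 0.257, adjusted p = 0.413). Without that embryo the difference was -0.15. Hist1h1c, which encodes H1.2, averaged 5.37 ± 1.66 and 4.13 ± 0.984 RPKM (SD, n = 4 each, -0.29, limma's adjusted p = 0.479). Hist1h1a, which encodes H1.1, averaged 5.65 and 5.10 RPKM (-0.17, or 0.04 without TKO replicate 2, limma's adjusted p = 0.780), and Hist1h1e, which encodes H1.4, 1.74 and 1.58 RPKM (-0.17, or 0.03 without TKO replicate 2, limma's adjusted p = 0.791).

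No clustered H3 gene reached the filter. The 11 H3 genes summed to 1.96 to 3.37 RPKM in Control embryos and 2.22 to 5.12 RPKM in the TKO-labelled group, while the pair of H3.3 genes summed to 992 to 1106 and 1031 to 1172 RPKM. The highest clustered H3 gene, Hist1h3c, averaged 0.925 RPKM over the 8 embryos. The kit primes on poly(A) tails, so these levels do not compare the total mRNA of clustered H3 and H3.3 genes.

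**Figure D3:**
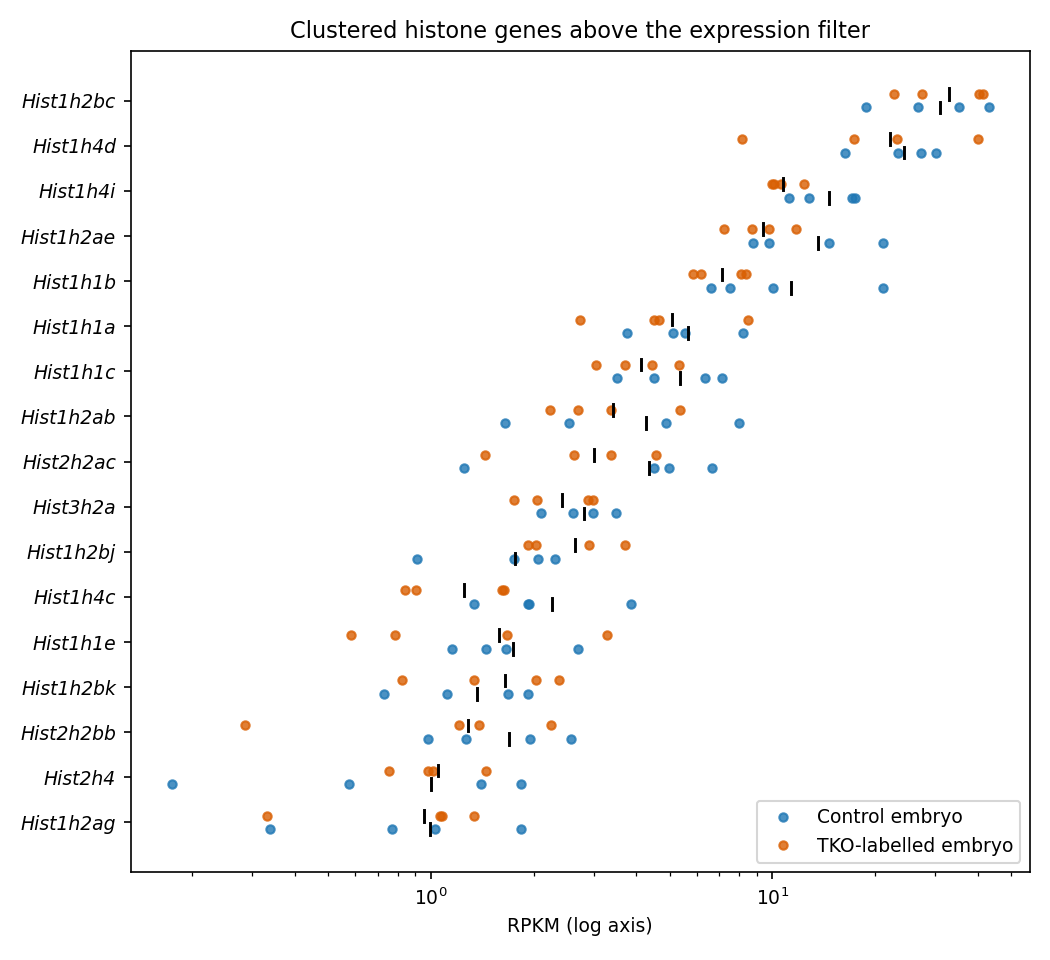
RPKM of the 17 clustered genes above the filter in each embryo, on a log axis, with Control embryos in blue, TKO-labelled embryos in orange and black ticks at the group means (n = 4 each). Hist1h2bc lies highest, and the groups overlap for every gene shown, Hist1h4i by a single pair of embryos.

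**Figure D4:**
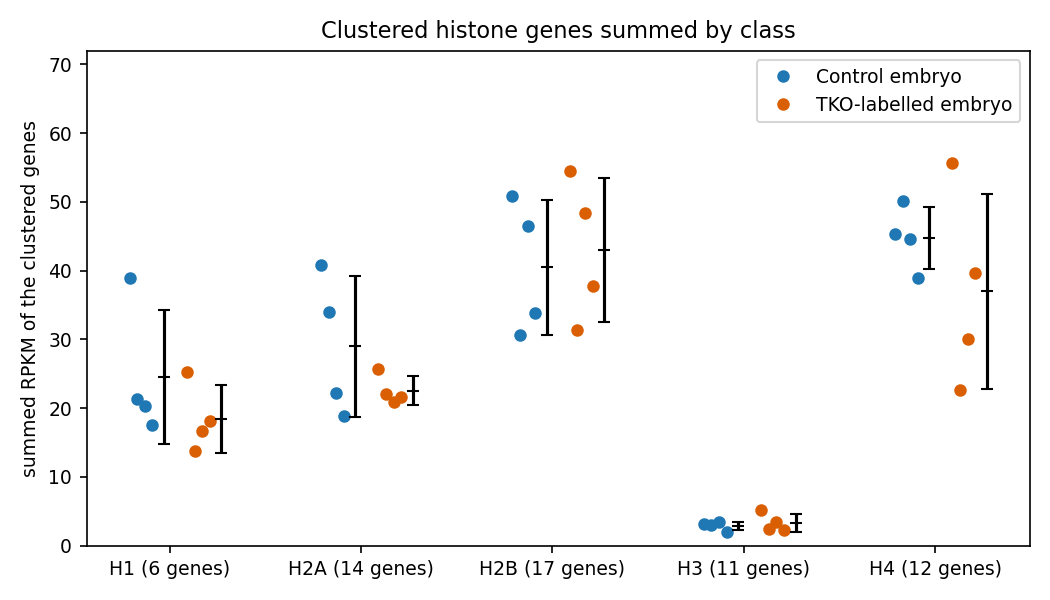
Summed RPKM of the clustered genes of each class in each embryo, with bars at the mean ± SD (n = 4 each). H2B and H4 lie highest, H3 stays under 6 RPKM, and the groups overlap in all 5 classes.

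The 43 clustered genes under the filter were low in every embryo. Their means were 0.018 to 0.927 RPKM, with a median of 0.237 RPKM, and 32 of them were listed at 0 in at least 1 embryo. For scale, 1 read on an H4 coding sequence of 312 bases was worth 0.168 to 0.323 RPKM at the estimated depths. In 19 the Control mean was the higher and in 24 the TKO-labelled mean. The groups did not overlap in 4 of the 43, 3 lower and 1 higher, where 2.89% of all genes under the filter and above 0 in some embryo did not.

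These 4 are named because of that count, after their values were seen. Hist1h4h lay at 1.01, 1.398, 0.502 and 1.16 RPKM in Control embryos and at 0.422, 0.295, 0.329 and 0.178 RPKM in the TKO-labelled group, about 29 and 8 estimated reads in all. The H2B gene Hist2h2be lay at 0.809, 1.38, 1.22 and 1.04 RPKM in Control embryos and at 0.5, 0.726, 0.5 and 0.162 RPKM in the TKO-labelled group. The H3 gene Hist1h3b lay at 0.163 to 0.338 RPKM in Control embryos and was listed at 0 in 3 TKO-labelled embryos. The other direction was seen for Hist1h2be, at 0.133 to 0.255 RPKM in Control embryos and 0.271 to 0.522 RPKM in the TKO-labelled group, about 29 and 50 estimated reads. They were picked for groups without overlap, so their differences are a description, and no p-value is given for them.

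Near-identical sequence limits the separation of these genes. The share of 50-base words of a gene's longest coding transcript that were also found in an annotated transcript of another gene had a median of 57.2% for clustered H3, 55.2% for H2A, 43.8% for H2B, 34.2% for H4 and 1.13% for H1 genes. How the authors placed reads that match several genes is not given in the sources used here, so the split between copies is uncertain. H2afv and H2afy shared 0% of such words, Hist1h4d 10.2%, Hist1h4i 28.9%, Hist1h2bc 30.1%, H2afz 33.2% and Hist1h2ae 43.2%. These shares cover the whole annotated transcript. The share within the part that was counted is not known and can be higher where only the coding stretch was counted.

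The promoters, 250 bases before to 50 after the start, were taken from RefSeq (build GRCm38.p6) for 54 clustered genes and 11 variants. Of the clustered genes 46 lie on chromosome 13, 5 on chromosome 3, 2 on chromosome 11 and 1 on chromosome 6. Both strands were searched for the TATA box, as TATAAA. They were also searched for the CCAAT box, under that name, and for the octamer known from H2B promoters, as ATTTGCAT. On the gene's own strand and 40 to 20 bases before the start, TATAAA was in only 12 of the 54 clustered promoters. Anywhere in the window and on either strand, it was found in 61.1% of clustered and 9.09% of variant promoters, with 13.6% of all 32851 promoters in that table. CCAAT was found in 85.2%, 63.6% and 37.4%. It was in all 43 clustered H1, H2A, H2B and H3 promoters and in 3 of 11 H4 promoters. The 43 include the promoter of H3c15, joined by synonym to the pseudogene symbol Hist2h3c2-ps. ATTTGCAT was found in 24.1%, 9.09% and 1.74%, in 7 H2A and 6 H2B promoters and in no other clustered class. These are not all separate sites. The windows of Hist1h2aa and Hist1h2ba overlap and hold the same site, counted for both genes. So do those of Hist1h2ae and Hist1h2bg, and of Hist1h2ah and Hist1h2bk.

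The H2A and H2B genes often face away from each other across a short shared promoter. In 8 pairs the promoter windows overlapped by 220 to 279 bases. Levels within a pair differed by 1.97 to 18.1 times, but many are near the floor. The 1.97 is between Hist1h2aa at 0.149 RPKM and Hist1h2ba at 0.0755 RPKM. By comparison, 1 read on an H4 coding sequence was worth 0.168 to 0.323 RPKM. Sequence shared with other genes also makes the split between copies uncertain. The widest gap was between Hist1h2ae, at 11.5 RPKM over the 8 embryos, and Hist1h2bg, at 0.634 RPKM. The window of Hist1h2ae is shown because it also holds 279 bases of that of Hist1h2bg on the opposite strand. It lies at chr13:23571171-23571470 on the minus strand, with the motifs on either strand in capitals, a TATAAA and an ATTTGCAT read on the opposite strand and a CCAAT on each.
Hist1h2ae promoter: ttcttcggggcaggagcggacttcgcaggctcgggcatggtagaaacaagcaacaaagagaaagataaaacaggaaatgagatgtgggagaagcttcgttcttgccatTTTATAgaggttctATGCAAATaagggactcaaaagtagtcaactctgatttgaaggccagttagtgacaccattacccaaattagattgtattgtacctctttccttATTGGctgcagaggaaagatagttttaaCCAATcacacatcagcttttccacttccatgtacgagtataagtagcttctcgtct

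**Figure D5:**
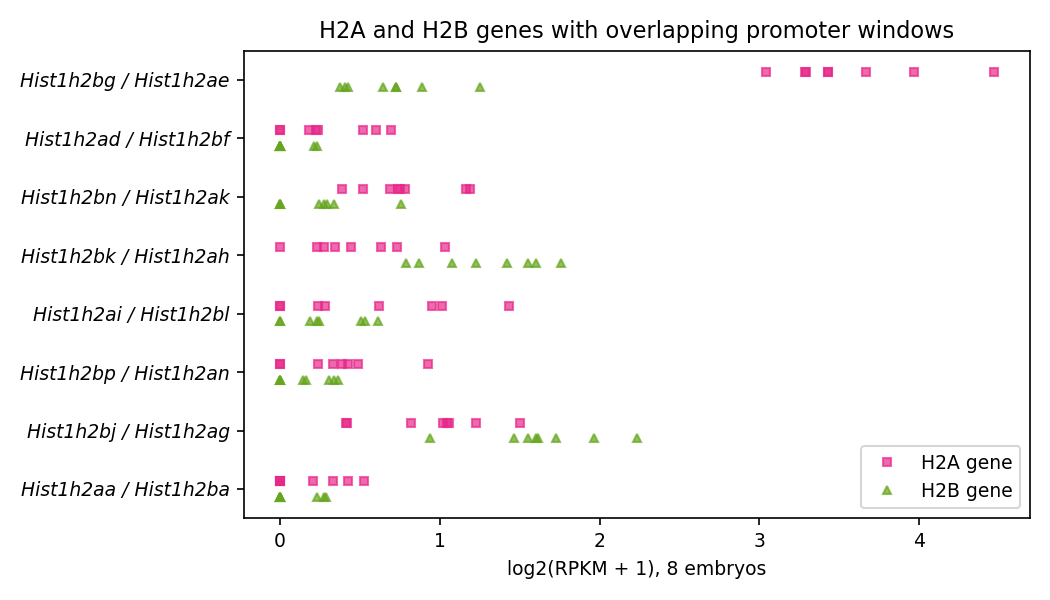
Level of the H2A gene (squares) and the H2B gene (triangles) of each of the 8 pairs with overlapping promoter windows, as log2(RPKM + 1) in each of the 8 embryos. The pair of Hist1h2bg and Hist1h2ae at the top is the only one whose values do not overlap, and most other genes lie under 1 RPKM.

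The factors that make, process and deposit histones held 0 called genes. Of the histone mRNA processing list, 24 genes were tested by limma, 1 with a higher and 2 with lower values at an unadjusted p under 0.05, where 13.9% of all genes tested were higher and 3.6% lower. The median log2 difference was 0.14. After median-ratio scaling the counts were 0 and 2 with a median of 0.07, and without TKO replicate 4 they were 0 and 0, also with a median of 0.07. Slbp, the stem-loop binding protein, averaged 134 and 149 RPKM (0.15, adjusted p = 0.549), and Npat, the activator of clustered gene transcription, 7.01 and 7.64 RPKM (0.11, adjusted p = 0.637). The leading members were the spliceosomal Sm genes Snrpb, at 476 ± 25.3 and 575 ± 49.97 RPKM (SD, n = 4 each, 0.27, adjusted p = 0.230), and Snrpe, at 1501 ± 192 and 1188 ± 166 RPKM (-0.34, adjusted p = 0.243).

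Of the chaperones that act at the replication fork, 16 were tested by limma, with 3 higher and 0 lower at an unadjusted p under 0.05 and a median of 0.17, where 13.9% of all genes were higher. After median-ratio scaling 1 was higher and 0 lower, with a median of 0.10, and 6 of 16 differences lay below 0 in place of 2. Rbbp7, a subunit of several chromatin complexes, averaged 170 ± 27.7 and 257 ± 52.3 RPKM (SD, n = 4 each, 0.58, adjusted p = 0.173). Ipo4, the importin of newly made H3 and H4, averaged 18.6 ± 1.42 and 24.7 ± 4.93 RPKM (0.37, adjusted p = 0.232). Chaf1a, the gene of the large subunit of the assembly factor CAF-1, averaged 34.0 and 33.5 RPKM (-0.04, adjusted p = 0.897).

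Of the chaperones and remodellers of variants, 27 were tested by limma, with 4 higher and 0 lower at an unadjusted p under 0.05, where 13.9% of all genes were higher. After median-ratio scaling 1 was higher and 1 lower, where 8.03% of all genes were higher. The median was 0.04 as deposited and -0.04 after median-ratio scaling. Vps72, the H2A.Z-binding subunit of the SRCAP and p400 complexes, lay at 6.74, 6.00, 5.52 and 6.68 RPKM in Control embryos and at 20.8, 8.92, 9.99 and 15.8 RPKM in the TKO-labelled group. All 4 lay above Control, by 0.97 on the log2 scale (95% interval 0.47 to 1.47, limma p = 0.00134, exact permutation p = 0.0286, adjusted p = 0.141). Vps72 was picked for the smallest p in the list. Of the 27 genes 3 were higher and 0 lower without overlap, where 7.55% of all genes tested were higher and 1.86% lower. Ruvbl1, an ATPase of the same complexes, averaged 87.5 ± 15.3 and 117 ± 17.3 RPKM (SD, n = 4 each, 0.42, adjusted p = 0.221). Anp32e, which removes H2A.Z, averaged 71.8 and 62.8 RPKM (-0.19, adjusted p = 0.370), and the H3.3 chaperone genes Hira and Daxx had log2 differences of 0.14 and 0.04 (adjusted p = 0.609 and 0.919).

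S-phase genes, such as those of the replicative helicase and of nucleotide synthesis, were high in both groups. Of 48 tested by limma, 8 were higher and 1 lower at an unadjusted p under 0.05, where 13.9% of all genes were higher and 3.6% lower. The median was 0.06. After median-ratio scaling 5 were higher and 1 lower, with a median of -0.02. Their summed level was 2654 to 3004 RPKM in Control embryos and 2688 to 3280 RPKM in the TKO-labelled group. Tk1, the S-phase thymidine kinase, averaged 26.9 ± 2.34 and 41.5 ± 6.80 RPKM (SD, n = 4 each, 0.60, adjusted p = 0.134). Gins2, a subunit of the helicase complex, averaged 34.1 ± 2.64 and 56.6 ± 12.6 RPKM (0.69, adjusted p = 0.136). All 4 TKO-labelled embryos lay above Control for both genes, which were picked for the smallest p in the list. Of the 48 genes 5 were higher and 1 lower without overlap, where 7.55% of all genes tested were higher and 1.86% lower.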

How the data were processed

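RNA was sequenced from 8 single embryos. The deposited table gives RPKM, which the authors computed, per symbol and embryo. Counting used HTSeq and build mm9, per the submitters' processing notes. Not given in the sources used here were the aligner, the annotation, the read total, the use of strand and the treatment of reads matching several genes. Antisense reads cannot be told apart.

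Groups came from the labels. limma 3.58.1 (R 4.3.3, eBayes with a variance trend) was fitted to log2(RPKM + 1) of the 10451 genes with at least 1 RPKM in at least 4 of 8 embryos, without block or covariate. P-values were two-sided and adjusted by Benjamini-Hochberg. The fit was also run on simulated normal values, drawn independently for each gene. That run cannot show how correlation between genes or an outlying embryo affects the p-values. Members under the filter were not in the main fit and are described by whether their groups overlapped. The alternative with no filter fitted them too. Exact permutation p-values were also computed for them and are not given. Depth was estimated from low values that are whole reads (tolerance 0.5%), and no count test was run. For 22 of 23 low members above 0 in at least 6 embryos, values came out within 0.08 of whole reads at the shortest model length allowing it.

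The members and lists were chosen with earlier results of these data known. Named are all variants, clustered genes above the filter, per-embryo values for the 5 highest and those with an unadjusted p under 0.05, and 2 leading genes per list, with some further list members named for their function. Alternatives were pseudocounts of 0.1 and 0.5, no filter, a filter in all 8 embryos, median-ratio scaling, no variance trend, a replicate block, and leaving out each embryo. Sequences came from GRCm38 and were joined to the values only by symbol, or for promoters by a RefSeq synonym where the symbol had changed. Where a gene had more than 1 promoter, the first listed was used.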

Additional observations from a re-analysis of the deposited data

Results flagged for a closer look

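Of 54 groups of 4 embryos looked at for a value far from the other 3 (the 27 members tested, in each group), 1 stood out, where chance gives about 2.7. H2afy was at 27.9 RPKM in TKO replicate 3 and at 24.2 to 24.5 RPKM in the other 3 TKO-labelled embryos. That embryo still lay below all Control embryos.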

How the results depend on the processing

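Of the 28 genes followed (the 27 members tested and Cenpa), 0 were called under any alternative that tested them (10 to 15 of the 15 per gene, since genes under a setting's filter drop out), and 19 kept the sign of their difference in those. The other 9 turned at least once, all 9 when 1 embryo was left out. Leaving out 1 embryo gave log2 differences from the lowest to the highest of -0.41 to 0.043 for Hist1h1a, -0.45 to 0.028 for Hist1h1e, -0.42 to 0.17 for Hist1h2ab, -0.18 to 0.18 for Hist1h2ag, -0.10 to 0.28 for Hist1h2bc, -0.63 to 0.093 for Hist1h4d, -0.12 to 0.18 for Hist2h4, -0.48 to 0.050 for H1fx and -0.024 to 0.11 for H2afz. Of these, Hist1h2ag also turned with a pseudocount of 0.1 (0.0094) and H2afz after median-ratio scaling (-0.046). Genes called among all tested were 1 in the fit of all embryos, 0 with no filter, 2 with the stricter filter, 0 with the replicate block and 0 to 36 leaving out 1 embryo, 36 of them without TKO replicate 1. Clustered genes lower at an unadjusted p under 0.05 were 2, against 4 with no filter, 1 with the stricter filter, 1 with the block and 0 to 4 leaving out 1 embryo (0 without TKO replicate 3, 4 without Control replicate 4), and those higher were 0, against 2 with no filter and 0 to 1. Variants lower were 2, against 1 with the block and 1 to 2, and those higher 0, against 1 with the block and 0 to 1. The median of the variants was -0.11, -0.19 after median-ratio scaling and -0.17 to -0.048 leaving out 1 embryo, and that of the clustered genes -0.17, -0.31 with a pseudocount of 0.1, -0.03 with no filter and -0.39 to -0.07 leaving out 1 embryo. Where a cause is not plain from fewer genes or embryos it was not tested. Same-numbered embryos correlated at -0.005, 0.402, 0.265 and -0.021 over genes, and 4 of 8 embryos lay closest to their own number. The labels name no shared litter or day and not every pair correlated, so the numbers were not taken as pairs. Depth limits the members under the filter, where 1 read on an H4 coding sequence was worth 0.168 to 0.323 RPKM.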

Other observations

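Hist1h2bc, the highest clustered gene, had nearly the same set of values in both groups: replicate 2 was the lowest in each (18.8 and 22.6 RPKM), followed by replicate 4 (26.7 and 27.3 RPKM), replicate 3 (35.2 and 40.3 RPKM) and replicate 1 (43.0 and 41.4 RPKM). The labels do not say that a number marks a shared litter or day.

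TKO replicate 1 held the highest value of the 8 embryos for 8 of the 27 members tested, 5 of them clustered genes, and TKO replicate 2 the lowest for 8. Control replicate 1 held the highest value for 5 clustered genes. The same counts over all genes tested are not given, so these are not read as a trait of histone genes. TKO replicate 1 also had the lowest estimated depth (9.91 M reads) and the most symbols listed at 0 (4942).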
